A study of Mus musculus with 12 samples.

Results

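Integrins, laminins and cadherins are the genes through which cells hold on to basement membrane and to each other, and 36 of the 8251 genes named on the array fell in these families by their symbols. They were taken as every gene whose probe set carries a single symbol made of Itga, Itgb, Lama, Lamb, Lamc or Cdh and a number, with Cdh5, the cadherin of endothelial junctions, left out. The 36 genes comprised 14 integrin subunits (7 alpha and 7 beta, among them Itgb2l), 9 laminin chains (5 alpha, 3 beta, 1 gamma) and 12 cadherins. The remaining gene, Itgb1bp1, meets the naming rule although it encodes a cytoplasmic protein that binds the tail of the beta 1 integrin and is no integrin itself. Where a gene had several probe sets, as 16 of the 36 did, the one with the highest mean log2 signal stood for it.

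The fat came from male C57BL/6 mice, an inbred laboratory strain, aged 42 to 49 days, with no treatment or engineered allele in any group. Tissue of 10 mice was pooled by depot and treated for 45 min with collagenase at 1 mg/ml, and 12 arrays, 3 for each of 4 groups, measured its messenger RNA. The groups were the floating adipocytes of subcutaneous flank fat, those of intraabdominal (epididymal) fat, and the stromo-vascular fraction of each depot. The stromo-vascular fraction is the pellet of precursors and other cell types. It was treated to lyse red cells, plated in medium with serum and harvested after 16 h, whereas the adipocytes were washed and extracted directly, so cell fraction and culture on plastic cannot be told apart. Nothing says whether the 3 arrays of a group came from separate pools, so the p-values measure only the spread between these samples.

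Integrins are receptors made of an alpha and a beta subunit, and the alpha subunit largely sets what is bound. Itga5 with Itgb1 binds fibronectin, whereas Itga3, Itga6 and Itga7 bind laminins. Laminins are secreted proteins of an alpha, a beta and a gamma chain that build the basement membrane, the sheet that wraps fat cells, muscle fibres and vessels. Classical cadherins join like cells through calcium-dependent contacts and reach the cytoskeleton through catenins. Cdh13 (T-cadherin) differs in being tied to the membrane by a lipid anchor, and it binds adiponectin, a hormone of fat cells.

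Values below are the authors' array signals on a linear scale, as means ± SD over 3 arrays unless single arrays are given. A log2 difference (± SE) and its fold were taken on the scale of signal plus a pseudocount of 40.2, which understates the change of dim genes. Adjusted p-values are those of limma over all 8695 probe sets tested, and a gene was called when this value was under 0.05. The dimmest 30% of probe sets by mean log2 signal, a limit of about 173 on the linear scale, were not tested, which left 22 members tested and 14 not. Just inside the limit stood Cdh13 and Itgb2l, at percentiles 30.6 and 40.6 of mean log2 signal, and just outside stood Itgb4 and Cdh16, at 29.2 and 26.8. Cdh13 and Itga6 were under the limit in the stromo-vascular cells of both depots on average, and Lama1 in those of subcutaneous fat. Itga5 was under it in subcutaneous adipocytes, and on the log2 scale also in intraabdominal ones, where its linear mean was 191 ± 116. Cdh2 was under it in intraabdominal adipocytes. These genes passed through the groups where they are high, so their differences were in part set by the filter. Probe sets differ in brightness per transcript, so signals of different genes were not set against each other. The probe sets of Itgb1, Lamb1 and Lamc1 are, by the suffix of their names, of a kind that can also match related transcripts. In such mixed samples fewer cells of a type and less RNA per cell cannot be told apart.

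Arrays of a group correlated with Pearson's r of 0.924 to 0.976 across probe sets. The ratio of 3' to 5' signal of actin, a measure that grows with RNA degradation, was 2.35 to 3.10 on the subcutaneous and 1.71 to 2.24 on the intraabdominal adipocyte arrays, and 1.11 to 1.24 on the stromo-vascular arrays (adipocyte against stromo-vascular arrays, two-sided exact permutation p = 0.00217, the smallest possible with 6 and 6 arrays). All 8 adipocyte markers were called higher in adipocytes in both depots. Endothelial markers were also higher in adipocytes, 10 of 11 in both depots, with a summed signal of 24443 to 43001 in subcutaneous and 28891 to 33547 in intraabdominal adipocytes against 10706 to 12414 and 10433 to 17728 in stromo-vascular cells. Preadipocyte and fibroblast markers were lower in adipocytes in 6 of 9 cases in subcutaneous and 7 of 9 in intraabdominal fat. In each depot 2 of the 9 were higher in adipocytes. Intraabdominal stromo-vascular cells stood apart in smooth muscle markers (166884 to 196718 against 44268 to 45424 in subcutaneous ones). Mesothelial markers summed to 7294 to 7618 against 1521 to 2017 and macrophage markers to 44440.2 to 50321 against 26856 to 28460.4. No probe set was at 0 on any array, so a signal above 0 does not show that a marker was detected. The part of these other cells in the results below was not tested.

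Over the 4 groups 18 of the 22 tested members differed somewhere (F-test of limma), 81.8% beside 64.0% of all tested probe sets. The 4 without such a call were Itga2, Itgb2l, Itgb7 and Cdh1. Most of the contrast in the heatmap of all members lay between the cell fractions.

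**Figure D1:**
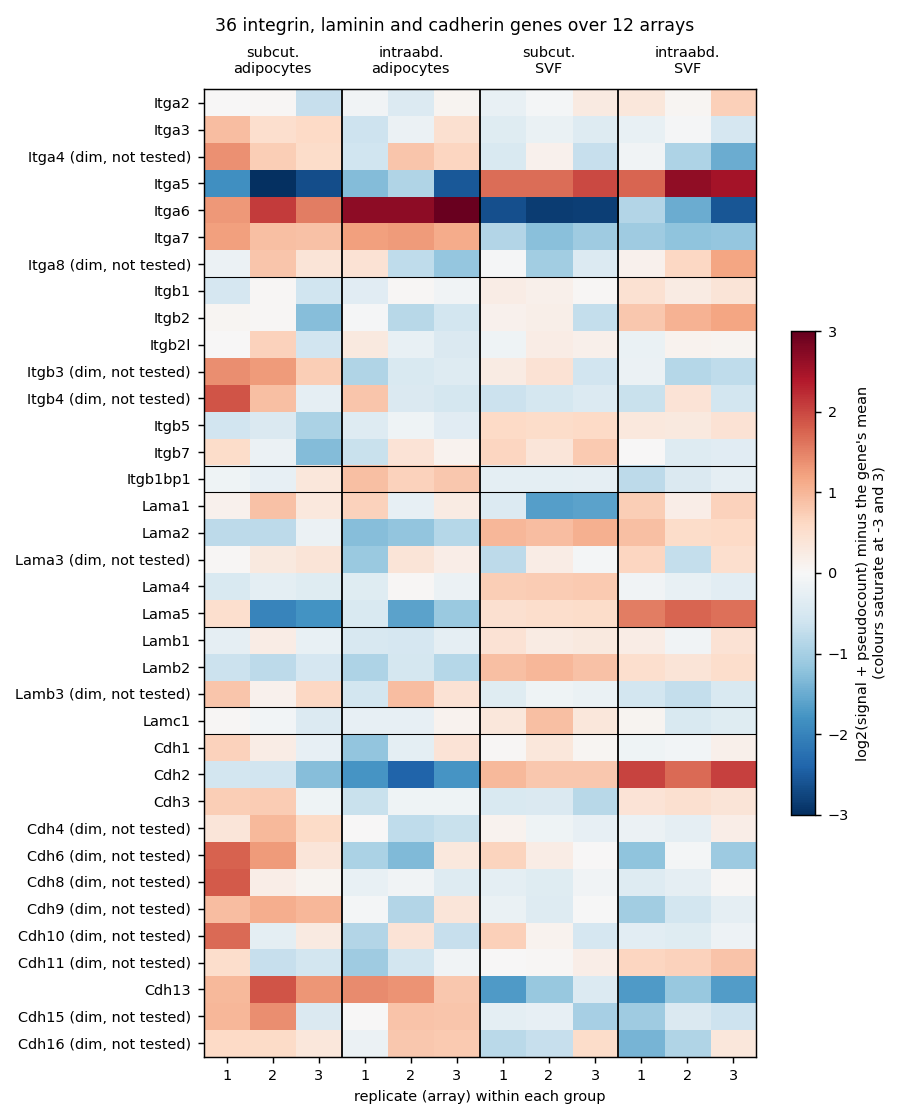
Log2 signal (plus pseudocount) of each of the 36 genes on each of the 12 arrays, relative to the gene's mean over all arrays. Columns are the 3 arrays of each group and rows are ordered by family. Itga5 and Cdh2 are low in adipocytes and high in stromo-vascular cells, and Itga6, Itga7 and Cdh13 the reverse.

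The comparison of adipocytes with stromo-vascular cells asked which of these genes are higher in the floating adipocyte fraction and which in the plated cells. The laminin-binding subunits Itga6 and Itga7 and the cadherin Cdh13 were higher in adipocytes of both depots. The fibronectin-binding subunit Itga5, the beta subunits Itgb1 and Itgb5, the laminin chains Lama2, Lama5 and Lamb2, and the cadherin Cdh2 were lower in adipocytes of both depots. Of 22 tested members 15 (68.2%) were called in subcutaneous fat, 6 higher and 9 lower in adipocytes. In intraabdominal fat 14 (63.6%) were called, 4 higher and 10 lower. The background was 52.8% of all tested probe sets in subcutaneous fat (23.5% higher and 29.4% lower) and 51.3% in intraabdominal fat (22.4% and 29.0%). The median log2 difference of the tested members was -0.34 in subcutaneous and -0.42 in intraabdominal fat, against -0.04 and -0.11 over all tested probe sets.

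**Figure D2:**
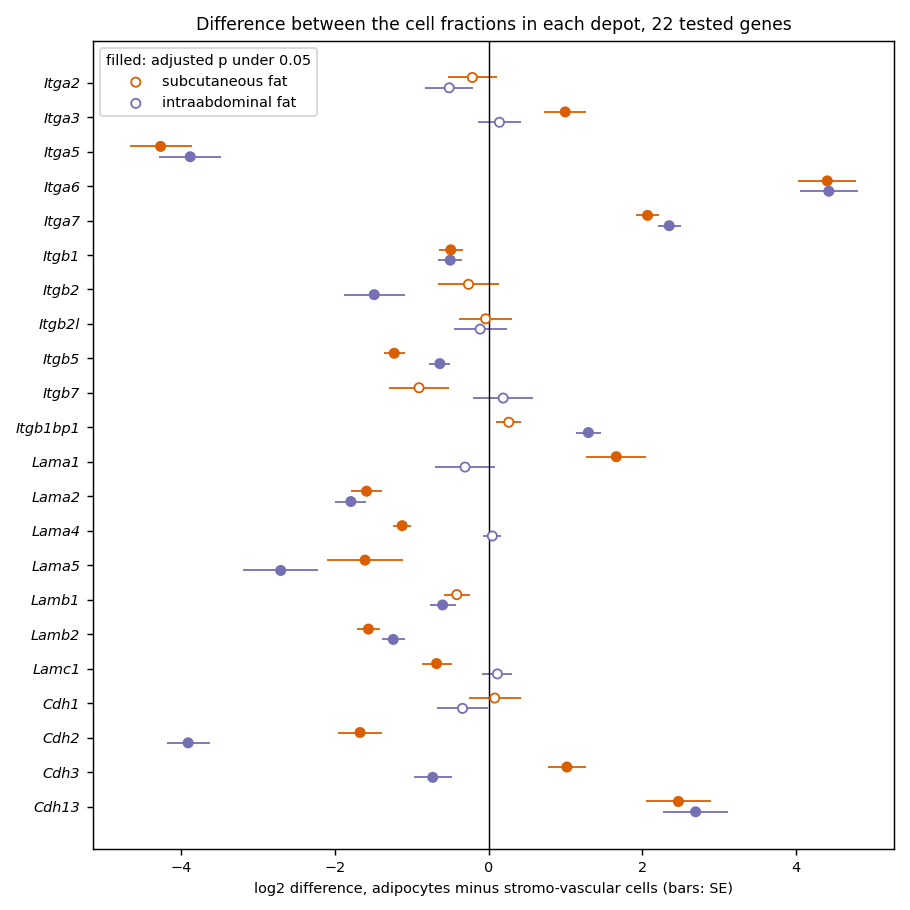
Log2 difference between adipocytes and stromo-vascular cells (x axis, bars are SE) for each of the 22 tested genes in each depot, with called genes as filled points. Itga6, Itga7 and Cdh13 lie to the right of 0 in both depots, Itga5 and Cdh2 to the left, and Cdh3 on opposite sides in the depots.

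Itga6 is the alpha subunit of receptors for basement membrane laminins. It read 895, 1596 and 1062 on the subcutaneous adipocyte arrays and 2428, 2426 and 2955 on the intraabdominal ones. In stromo-vascular cells it read 20.9, 13.3 and 13.6 in subcutaneous and 167, 95.7 and 24.5 in intraabdominal fat. Every adipocyte array lay above every stromo-vascular array. The log2 difference was 4.41 ± 0.38 in subcutaneous fat (21.2-fold, adjusted p = 1.76e-07) and 4.43 ± 0.38 in intraabdominal fat (21.6-fold, adjusted p = 1.67e-07). Itga6 is also found on endothelium, and the endothelial cadherin Cdh5 showed log2 differences of 3.70 and 5.61 in the same contrasts. The median over the 11 endothelial markers was 1.92 in subcutaneous and 2.28 in intraabdominal fat.

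Itga7, the laminin receptor subunit best known from muscle, was higher in adipocytes of both depots. It read 5386, 4266 and 4176 in subcutaneous and 5366, 5575 and 4922 in intraabdominal adipocytes. The stromo-vascular arrays read 1221, 924 and 1058 in subcutaneous and 1059.8, 955 and 996 in intraabdominal fat, below every adipocyte array. The log2 difference was 2.07 ± 0.15 (adjusted p = 2.54e-08) and 2.35 ± 0.15 (adjusted p = 5.90e-09). Another tested probe set of Itga7 was called in the same direction in both depots, at 1.96 and 2.14. Smooth muscle markers were higher in adipocytes in 2 of 10 cases and lower in 4 in subcutaneous fat, and higher in 1 and lower in 9 in intraabdominal fat. Of 5 tested skeletal muscle markers 3 were higher in adipocytes in each depot, with 1 lower in subcutaneous fat. Over the 8 on the array their signal summed to 8519 to 9264 in subcutaneous and 9365 to 10151 in intraabdominal adipocytes. In stromo-vascular cells it summed to 5791 to 6154 and 2708 to 3147. The part of muscle RNA in the Itga7 difference was not tested.

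Itga5, the alpha subunit of the main fibronectin receptor, went the other way. In adipocytes it read 135, 38.5 and 58.6 in subcutaneous and 212, 296 and 66.3 in intraabdominal fat. In stromo-vascular cells it read 1964, 1961 and 2416 in subcutaneous and 2057, 3933 and 3464 in intraabdominal fat. The fractions did not overlap, and the log2 difference was -4.27 ± 0.40 (19.3-fold lower in adipocytes, adjusted p = 5.01e-07) and -3.89 ± 0.40 (14.8-fold lower, adjusted p = 1.31e-06).

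Itga3, which binds laminins with Itgb1, read 1074, 796 and 855 in subcutaneous adipocytes and 415, 471 and 410.2 in the stromo-vascular cells of that depot. It was called higher in adipocytes there (1.00 ± 0.28, adjusted p = 0.00714). In intraabdominal fat it read 533 ± 224 in adipocytes and 459 ± 78.5 in stromo-vascular cells, which overlapped (adjusted p = 0.702). Another Itga3 probe set gave 1.37 in subcutaneous fat, also called, and -0.76 in intraabdominal fat, not called. Itga2, a collagen receptor subunit, had overlapping groups in both depots.

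Among the beta subunits, Itgb1 is the one that pairs with most alpha subunits. It read 24064, 34784 and 22377 in subcutaneous and 26680, 35069.7 and 31404 in intraabdominal adipocytes. The stromo-vascular arrays read 39550.3, 37843 and 34961 in subcutaneous and 46643, 40226 and 44407 in intraabdominal fat. In each depot every stromo-vascular array lay above every adipocyte array, in subcutaneous fat by a narrow margin. The log2 difference was -0.49 ± 0.16 (adjusted p = 0.0164) and -0.50 ± 0.16 (adjusted p = 0.0153), and another probe set of Itgb1 gave -1.77 and -1.82. The subcutaneous call was lost without adipocyte array 1 (-0.42, adjusted p = 0.0608), adipocyte array 3 (-0.37, 0.0684) or stromo-vascular array 1 (-0.45, 0.0593), in a range of 6.54e-06 to 0.0684 over all alternatives. The intraabdominal call was lost without adipocyte array 1 (-0.40, 0.0772) or stromo-vascular array 1 (-0.45, 0.0512) and after centring arrays on their medians (-0.35, 0.0993), in a range of 4.83e-06 to 0.0993.

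Itgb5, the partner of the alpha V subunit in a vitronectin receptor, read 3563, 3890.2 and 2737 in subcutaneous adipocytes against 8013, 7744 and 8059 in stromo-vascular cells. In intraabdominal fat it read 4063, 4816 and 4194 against 6631, 6493 and 7217. The fractions did not overlap in either depot, and the log2 differences were -1.23 ± 0.14 (adjusted p = 2.35e-06) and -0.64 ± 0.14 (adjusted p = 0.0011). A dimmer probe set of Itgb5 gave 0.14 and -0.44, neither of them called. Itgav, the alpha V subunit itself, lies outside the naming rule and was also lower in adipocytes (-1.87, adjusted p = 2.17e-07, and -2.11, 6.12e-08).

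Itgb2, the beta subunit of leukocyte integrins, read 293, 153 and 193 in intraabdominal adipocytes against 565, 671 and 735 in stromo-vascular cells and was called lower (-1.49 ± 0.40, 2.81-fold, adjusted p = 0.00561). In subcutaneous fat the means were 243 ± 122 and 285 ± 98.7 and overlapped (adjusted p = 0.612). The difference between the depots in this respect was not called (1.23, adjusted p = 0.23). Macrophage markers were lower in intraabdominal adipocytes in 7 of 13 cases and higher in 4. Itgb7, a subunit of lymphocyte integrins, and Itgb2l were called in neither depot, and their groups overlapped. In subcutaneous fat Itgb7 showed -0.91 ± 0.39 (adjusted p = 0.0639). It was called in 3 of 24 alternatives, among them without adipocyte array 1 (-1.34, 0.00685), in a range of 0.00203 to 0.396.

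Itgb1bp1, the binding partner of the Itgb1 tail, was higher in intraabdominal adipocytes, at 7432, 6478 and 6976 against 2298, 2929.7 and 3270.4 in stromo-vascular cells (1.30 ± 0.16, adjusted p = 9.70e-06). In subcutaneous fat it read 3984 ± 915 against 3262 ± 51.0 and was not called (adjusted p = 0.197). Both other probe sets of the gene were called in the same direction in intraabdominal fat, at 0.50 and 0.60. One of them was called higher in subcutaneous adipocytes too (0.77, adjusted p = 0.00551), and the other was not (0.18, 0.398).

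Of the 7 tested laminin chains 5 were lower and 1 higher in subcutaneous adipocytes, beside 29.4% lower and 23.5% higher over all tested probe sets. In intraabdominal adipocytes 4 were lower and none higher, beside 29.0% and 22.4%. Lama2, the alpha chain of the laminin around muscle fibres, read 640.2, 651 and 998 in subcutaneous and 446, 479 and 614 in intraabdominal adipocytes. Its stromo-vascular arrays read 2324, 2222 and 2453 in subcutaneous and 2176, 1699 and 1747 in intraabdominal fat. No adipocyte array reached them, and the log2 differences were -1.59 ± 0.20 (adjusted p = 1.00e-05) and -1.79 ± 0.20 (adjusted p = 2.84e-06).

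Lamb2, a beta chain of laminins at vessels and nerve endings, read 1048, 939.8 and 1154 in subcutaneous and 851, 1134 and 898 in intraabdominal adipocytes. Stromo-vascular cells read 3122, 3353 and 3044 in subcutaneous and 2358, 2174 and 2411 in intraabdominal fat. The fractions stood apart in both depots, with log2 differences of -1.57 ± 0.15 (adjusted p = 6.75e-07) and -1.24 ± 0.15 (adjusted p = 7.08e-06). Lamb1, the other widely used beta chain, read 2533 ± 495 against 3357 ± 260 in subcutaneous fat, which missed the threshold (-0.42 ± 0.17, adjusted p = 0.0517). In intraabdominal fat it read 1998 ± 197 against 3074 ± 560.4 and was called lower (-0.60 ± 0.17, adjusted p = 0.00808). Another Lamb1 probe set was called in both depots, at -1.52 and -1.67.

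Lama5, an alpha chain of epithelial and vessel basement membranes, read 1046, 154 and 181 in subcutaneous adipocytes and 1023, 1069.8 and 1083 in stromo-vascular cells, so that adipocyte array 1 stood among the stromo-vascular arrays. In intraabdominal fat it read 516, 211 and 312 against 2168, 2527 and 2385, without overlap. The log2 difference was -1.61 ± 0.49 (adjusted p = 0.0128) and -2.71 ± 0.49 (adjusted p = 0.000297). The subcutaneous call was lost without adipocyte array 2 (-1.17, adjusted p = 0.0668) or 3 (-1.26, 0.0635) and over the mean of the gene's probe sets (-0.70, 0.196), in a range of 9.59e-06 to 0.578. Another Lama5 probe set, not called, gave 0.20 in subcutaneous and -1.26 in intraabdominal fat.

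Lama4, an alpha chain of vessel, fat and muscle basement membranes, was lower in subcutaneous adipocytes. It read 6278, 7063 and 6628 in subcutaneous adipocytes against 14364, 14487 and 14846 in stromo-vascular cells, without overlap (-1.13 ± 0.12, adjusted p = 1.53e-06). In intraabdominal fat the means were 7679 ± 1061 and 7396 ± 556 and overlapped (adjusted p = 0.769). Lamc1, the gamma chain shared by most laminins, read 3379.8, 3122 and 2454 against 4192, 6127 and 4198 in subcutaneous fat (-0.68 ± 0.19, adjusted p = 0.00895). In intraabdominal fat its means were 3009 ± 439.8 and 2802 ± 615 and overlapped (adjusted p = 0.659). Array 2 of the subcutaneous stromo-vascular cells held the highest Lamc1 value of the 12, and omitting it ended the call (-0.50, adjusted p = 0.057), in a range of 0.00485 to 0.417. Averaging in the dim second probe sets, at percentiles 10.9 for Lama4 and 28.6 for Lamc1, ended both calls (-0.47, adjusted p = 0.0847, and -0.22, 0.417).

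Lama1, an alpha chain known from embryonic basement membrane, was the laminin chain called higher in subcutaneous adipocytes. It read 339, 593 and 392 there against 221, 70.2 and 73.5 in stromo-vascular cells (1.66 ± 0.39, 3.16-fold, adjusted p = 0.00232). In intraabdominal fat the means were 379 ± 136 and 467 ± 96.0 and overlapped (adjusted p = 0.541).

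Of the 12 cadherins 4 were tested. Cdh2 (N-cadherin), which joins mesenchymal, muscle and nerve cells, read 277, 273 and 152 in subcutaneous and 96.6, 48.1 and 96.0 in intraabdominal adipocytes. In stromo-vascular cells it read 877, 786 and 781 in subcutaneous and 1872, 1481 and 1895 in intraabdominal fat. None of the 4 groups overlapped another, with intraabdominal adipocytes lowest, then subcutaneous adipocytes, subcutaneous stromo-vascular cells and intraabdominal stromo-vascular cells. The log2 difference between the fractions was -1.68 ± 0.28 in subcutaneous fat (3.19-fold, adjusted p = 0.000146) and -3.91 ± 0.28 in intraabdominal fat (15.1-fold, adjusted p = 2.49e-08). Mesothelial cells also carry Cdh2, and all 6 tested mesothelial markers were lower in intraabdominal adipocytes, against 1 lower and 1 higher in subcutaneous ones. Of 10 smooth muscle markers 9 were lower and 1 higher in intraabdominal adipocytes, and 4 and 2 in subcutaneous ones. Of 9 preadipocyte and fibroblast markers these counts were 7 and 2, and 6 and 2. Over all tested probe sets 29.0% were lower in intraabdominal and 29.4% in subcutaneous adipocytes. The part of these cells in the Cdh2 difference was not tested.

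Cdh13 read 388, 770.3 and 509 in subcutaneous and 540.5, 514 and 346 in intraabdominal adipocytes. Stromo-vascular cells read 27.5, 59.2 and 126 in subcutaneous and 26.7, 60.0 and 28.2 in intraabdominal fat, below every adipocyte array. The log2 difference was 2.47 ± 0.42 (5.54-fold, adjusted p = 0.000173) and 2.70 ± 0.42 (6.48-fold, adjusted p = 7.78e-05). Endothelial cells also carry Cdh13, and the endothelial markers given above moved the same way.

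Cdh3 (P-cadherin), known from placenta and epithelia, was called in opposite directions in the depots by its brighter probe set. It read 1853, 1892 and 1001 in subcutaneous adipocytes against 794, 811 and 604 in stromo-vascular cells (1.02 ± 0.24, adjusted p = 0.00276). In intraabdominal fat it read 673, 1011 and 1008 against 1469, 1553 and 1447 (-0.73 ± 0.24, adjusted p = 0.022). Its other tested probe set was not called in subcutaneous fat (0.27, adjusted p = 0.579) and was called lower in intraabdominal fat (-1.38, 0.00594). The intraabdominal call was lost without adipocyte array 1 (-0.54, adjusted p = 0.102) or stromo-vascular array 2 (-0.70, 0.0614) and with quantile normalization (-0.56, 0.064), in a range of 0.0025 to 0.102. Cdh1 (E-cadherin), the cadherin of epithelia, had overlapping groups in both depots.

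With the actin 3' to 5' ratio as a covariate, 5 members were called between the fractions in subcutaneous fat, beside 12.2% of all tested probe sets, and 4 of the 15 (Itga7, Itgb1, Itgb5 and Lama4) were among them. The other was Itgb7 (-4.75, adjusted p = 0.00203). The subcutaneous difference then was 4.15 for Itga6 (adjusted p = 0.0616), -4.13 for Itga5 (0.0828), 2.82 for Cdh13 (0.246) and -2.37 for Cdh2 (0.131). Among the laminins it was -1.68 for Lamb2 (0.054), -1.08 for Lama2 (0.351), 2.28 for Lama1 (0.316), -1.78 for Lama5 (0.578) and -1.56 for Lamc1 (0.137). That of Itga3 was 0.02 (0.995), and that of Cdh3 turned to -1.05 (0.309). In intraabdominal fat 13 were called, beside 25.0% of all tested probe sets, and 11 of the 14 were among them, with the calls lost for Itgb2 (-2.09, 0.128), Lama5 (-2.82, 0.109) and Lamb1 (-0.99, 0.0808). The 2 added there were Itgb7 (-2.31, 0.0083) and Cdh1 (-2.15, 0.0192). The ratio did not overlap between the fractions, so it and the fraction cannot be told apart across groups.

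Promoter sequences were looked up in RefSeq (build GRCm38.p6) for the 7 members called lower in adipocytes of both depots, a set chosen by this direction. Those of 6 were taken, and Cdh2 was left out, since the lookup took no gene of its chromosome. The 250 bases before the gene's start are shown for Itga5 and for 2 laminin chains, Lama2 and Lamb2, as examples of a receptor and of matrix chains with the same direction. Sequences run 5' to 3' along the gene's strand, and capitals mark the GC box GGGCGG on either strand. The windows are chr15:103366792-103367041 (minus strand) for Itga5, chr10:27616943-27617192 (minus strand) for Lama2 and chr9:108479612-108479861 (plus strand) for Lamb2.
Itga5: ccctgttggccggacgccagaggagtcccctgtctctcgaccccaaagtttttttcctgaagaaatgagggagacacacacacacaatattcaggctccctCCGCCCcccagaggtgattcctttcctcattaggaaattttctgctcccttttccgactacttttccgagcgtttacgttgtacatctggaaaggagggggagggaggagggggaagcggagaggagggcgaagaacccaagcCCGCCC
Lama2: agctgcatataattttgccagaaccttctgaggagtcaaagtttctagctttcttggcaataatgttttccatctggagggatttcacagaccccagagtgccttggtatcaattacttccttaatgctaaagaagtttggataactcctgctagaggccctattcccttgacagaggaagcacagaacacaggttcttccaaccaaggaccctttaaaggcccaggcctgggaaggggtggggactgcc
Lamb2: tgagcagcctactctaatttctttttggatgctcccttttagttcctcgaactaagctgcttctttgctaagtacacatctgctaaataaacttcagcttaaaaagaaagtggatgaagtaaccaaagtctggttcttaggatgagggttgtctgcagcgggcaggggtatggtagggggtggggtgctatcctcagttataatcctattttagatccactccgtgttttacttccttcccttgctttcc
The Itga5 window holds 2 GC boxes at a GC content of 55.6%. The windows of Lama2 and Lamb2 hold none at 47.2% and 43.6%, against a median GC content of 52.4% over all 32851 promoters of this length. Those of Itgb1, Itgb5 and Lama5 hold 1, 3 and 4 at 68.0%, 65.2% and 72.4%. A GC box stands in 32.7% of all promoters. The TATA box TATAAA, found in 12.4% of all, and the AP-1 site TGANTCA, found in 6.75%, were searched on both strands and matched in none of the 6 windows. These matches describe letters in the windows and no binding.

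The comparison of subcutaneous with intraabdominal adipocytes asked which members differ between the adipocyte fractions of the depots. Cdh2 was higher and Itgb1bp1 lower in subcutaneous adipocytes, and no integrin subunit or laminin chain was called. These 2 calls were 9.09% of the 22 tested members, beside 8.13% of all tested probe sets (3.97% higher and 4.16% lower). The share was near the background. The actin ratio did not overlap between these groups, and with it as a covariate 97 of all tested probe sets were called in place of 707, and 1 member, Itgb7 (-1.79, adjusted p = 0.0462), in place of these 2. Cdh2, with the readings given above, differed by 1.18 ± 0.28 (2.27-fold, adjusted p = 0.0194). Itgb1bp1 read 3604, 3319.8 and 5028 against 7432, 6478 and 6976 (-0.82 ± 0.16, 1.77-fold, adjusted p = 0.00683). In both genes the groups did not overlap.

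Some integrins and a laminin chain did not overlap between the depots but missed the threshold. How many of all tested probe sets did not overlap between these groups was not counted, so this separation was not taken as a depot difference. Itga6 was lower on every subcutaneous array (-1.14 ± 0.38, adjusted p = 0.079), and so was Itgb5 (-0.37 ± 0.14, adjusted p = 0.109). The dimmer Itgb5 probe set was instead higher on every subcutaneous array (0.42, 0.251). Itga3 was higher on every subcutaneous array (0.79 ± 0.28, adjusted p = 0.094), and so was Lama2 (0.52 ± 0.20, adjusted p = 0.125). Itga6 was called in 4 of 23 alternatives, among them the median-centred arrays (-1.36, adjusted p = 0.0305), in a range of 0.0196 to 0.451. The other 6 laminin chains overlapped between the depots.

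Omitting subcutaneous array 1 (1.06, adjusted p = 0.0556), subcutaneous array 2 (1.06, 0.0559) or intraabdominal array 2 ended the Cdh2 call (0.97, 0.0766). It was also lost with quantile normalization (0.89, 0.0544), with the 6 adipocyte arrays alone (1.18, 0.202) and with the actin ratio as a covariate (0.90, 0.445), in a range of 0.00765 to 0.445. That of Itgb1bp1 was lost with this covariate (-0.39, 0.531) and over the mean of its probe sets (-0.29, 0.213), one of which pointed the other way at 0.24, in a range of 0.00196 to 0.531. Without intraabdominal adipocyte array 3 the count was 4. Centring each array on its median moved the median of all tested probe sets from 0.07 to -0.15 and gave 4 calls, 1 higher and 3 lower. Of all called probe sets 172 of 958 were then higher, beside 345 of 707.

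The comparison of the stromo-vascular fractions asked the same of the plated cells. Subcutaneous cells carried more of the laminin chains Lama4 and Lamc1, and intraabdominal cells more Lama1, Cdh2 and Cdh3. These 5 calls, 2 higher and 3 lower in subcutaneous cells, were 22.7% of the 22 tested members, beside 12.9% of all tested probe sets (6.49% higher and 6.45% lower). No integrin subunit was called by limma on the probe set that stands for it. A second probe set of Itga3 was called lower in subcutaneous cells (-1.44, adjusted p = 0.0419), where the brighter one gave -0.07.

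Lama4 read 14364, 14487 and 14846 in subcutaneous cells, above the 7992, 7305 and 6891 of intraabdominal cells without overlap (0.98 ± 0.12, 1.97-fold, adjusted p = 5.48e-05). Lamc1 read 4192, 6127 and 4198 against 3506, 2369.5 and 2529.8 (0.78 ± 0.19, 1.71-fold, adjusted p = 0.0156). Lamb2, a possible partner chain, was also higher on every subcutaneous array but missed the threshold (0.45 ± 0.15, adjusted p = 0.0708), and Lamb1 overlapped (adjusted p = 0.684). Endothelial markers were higher in subcutaneous stromo-vascular cells in 6 of 11 cases and lower in none, with overlapping sums.

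Lama1 was lower in subcutaneous cells, at 221, 70.2 and 73.5 against 532, 357 and 513 (-1.75 ± 0.39, 3.37-fold, adjusted p = 0.00724). Cdh2 read 877, 786 and 781 against 1872, 1481 and 1895 (-1.06 ± 0.28, 2.08-fold, adjusted p = 0.0212). Cdh3 read 794, 811 and 604 against 1469, 1553 and 1447 (-0.99 ± 0.24, 1.98-fold, adjusted p = 0.0145). The groups did not overlap in any of these. The other probe set of Cdh3 gave -1.15 and missed the threshold (adjusted p = 0.0563). Of the markers, 8 of 10 for smooth muscle, 5 of 6 tested for mesothelium and 7 of 13 for macrophages (with 1 higher) were lower in subcutaneous cells. Wt1, a transcription factor of mesothelium, read 222 ± 78.5 in subcutaneous against 1396 ± 421 in intraabdominal cells.

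Lama5, Itgb2, Itga6 and Itgb1 were lower on every subcutaneous stromo-vascular array without being called. Their log2 differences were -1.12 ± 0.49 (adjusted p = 0.169), -1.15 ± 0.40 (0.0771), -1.12 ± 0.38 (0.0687) and -0.22 ± 0.16 (0.427). Itgb7 (0.84 ± 0.39, 0.201), Itgb5 (0.23 ± 0.14, 0.336) and Lama2 (0.32 ± 0.20, 0.367) were instead higher on every subcutaneous array, like Lamb2 above. The dimmer Itgb5 probe set gave -0.16 (0.738). How many of all tested probe sets did not overlap between these groups was not counted, so this separation was not taken as a depot difference. The readings of Itga6 in these cells lay below the dim limit, and its difference ran from -1.81 to -0.60 over the alternatives.

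Omitting subcutaneous array 1 ended the Cdh2 call (-1.11, adjusted p = 0.0551), as did omitting subcutaneous array 2 (-1.03, 0.0783) or 3 (-1.03, 0.0794), intraabdominal array 1 (-1.01, 0.0798) or intraabdominal array 3 (0.0896), in a range of 0.00109 to 0.0896. That of Cdh3 was lost without subcutaneous array 3 (-0.86, 0.0734) or intraabdominal array 2 (-0.96, 0.0522), in a range of 0.00121 to 0.0734. That of Lamc1 was lost without subcutaneous array 2 (0.60, 0.0891) or intraabdominal array 2 (0.67, 0.0731) or 3 (0.72, 0.0649). Averaging in the dim second probe sets ended the calls of Lama4 (0.44, 0.224, range 2.13e-06 to 0.224) and Lamc1 (0.58, 0.105, range 0.00106 to 0.105). The count was 3 without subcutaneous array 2, subcutaneous array 3 or intraabdominal array 2. Lama1 was called in all 23 alternatives run for it (adjusted p = 0.00212 to 0.0386).

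**Figure D3:**
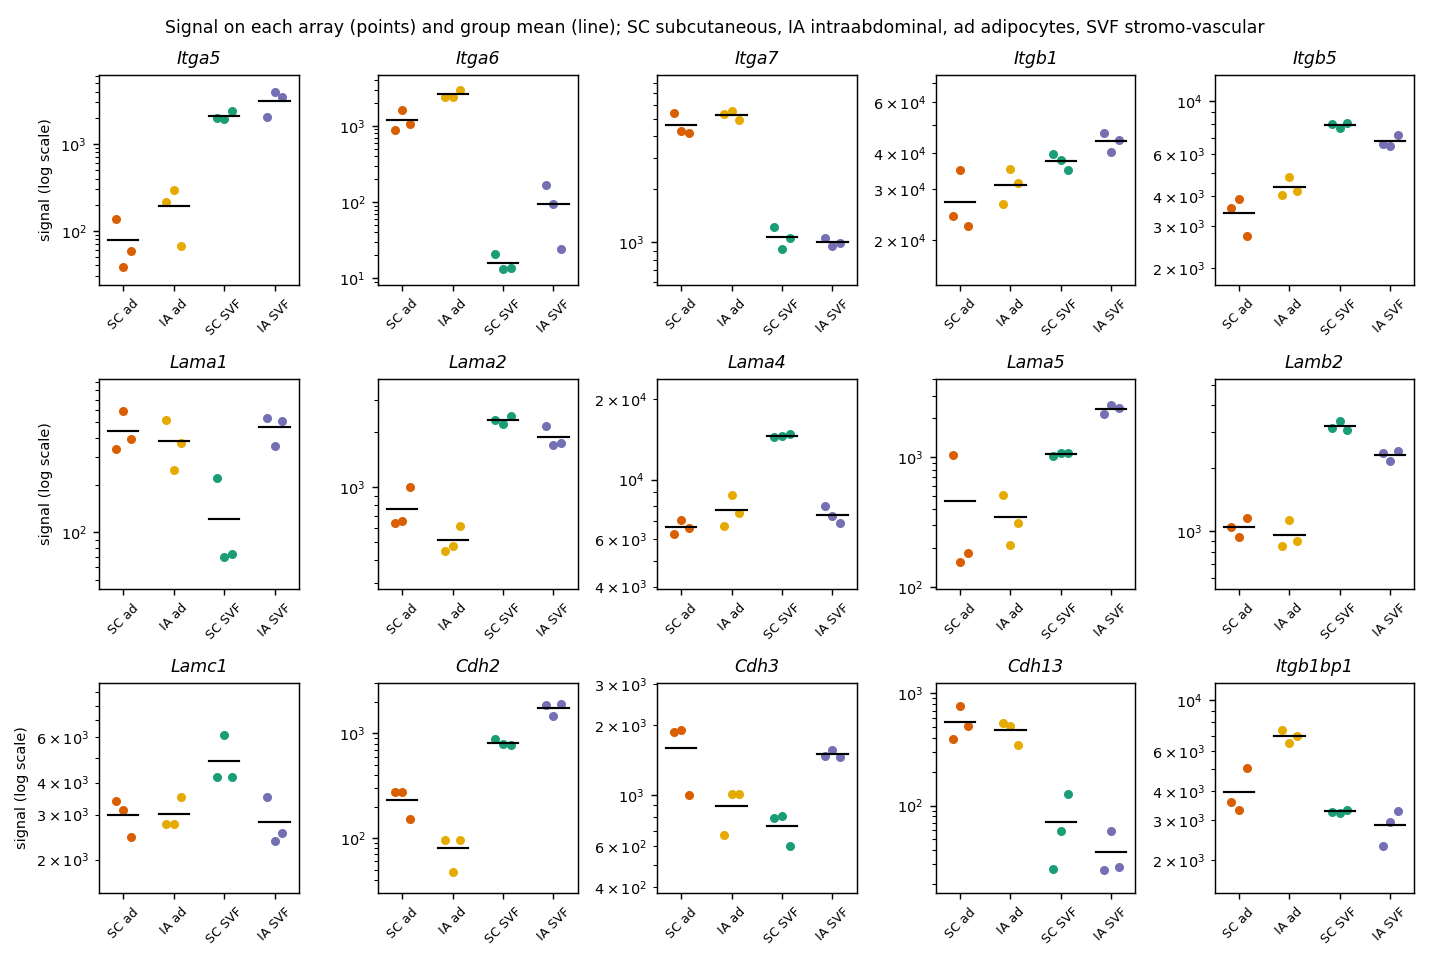
Signal on each array (points, log axis) with the group mean (line) for 15 of the genes described, each on its own scale, in subcutaneous (SC) and intraabdominal (IA) adipocytes (ad) and stromo-vascular cells (SVF). Lama4 is high and Lama1 low in subcutaneous stromo-vascular cells, and the 4 groups of Cdh2 do not overlap.

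Whether the depot difference was the same in both fractions was tested with the interaction, which takes the depot difference (subcutaneous minus intraabdominal) of the stromo-vascular cells from that of the adipocytes. Cdh2, Cdh3, Lama1, Lama4 and Itgb1bp1 were called, 3 higher and 2 lower, which is 22.7% of the 22 tested members beside 8.43% of all tested probe sets (3.90% higher and 4.53% lower). With arrays centred on their medians 229 of 695 called probe sets were higher, beside 339 of 733. Cdh2 was higher in subcutaneous fat among adipocytes (1.18) and lower among stromo-vascular cells (-1.06), an interaction of 2.24 ± 0.40 (adjusted p = 0.0024). Cdh3 showed 0.76 and -0.99 (1.75 ± 0.35, adjusted p = 0.00505), but its other probe set was not called (1.65, 0.0719). Lama1 showed 0.22 and -1.75 (1.97 ± 0.55, adjusted p = 0.0401). Lama4 showed -0.20 and 0.98 (-1.17 ± 0.17, adjusted p = 0.000422), and Itgb1bp1 -0.82 and 0.22 (-1.04 ± 0.23, adjusted p = 0.0114). The other probe sets of Itgb1bp1 gave -0.32 (0.51) and, with the opposite sign, 0.16 (0.801), neither of them called.

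The integrin alpha subunits called between the fractions in both depots gave interactions of -0.39 ± 0.57 for Itga5 (adjusted p = 0.764), -0.02 ± 0.54 for Itga6 (0.989) and -0.28 ± 0.21 for Itga7 (0.496), none of them called. Itga3, called between the fractions in subcutaneous fat, gave 0.86 ± 0.39 (0.228), not called, whereas its second probe set was called (2.13, 0.0474). The interaction of Cdh2 was called in all 22 alternatives run for it, at adjusted p-values of 0.000852 to 0.0422. That of Lama1 was lost in 14 of 22, in a range of 0.0122 to 0.119. Among these were the omission of subcutaneous adipocyte array 2 (1.75, 0.0871) or 3 (2.03, 0.0534), intraabdominal adipocyte array 2 (1.73, 0.101) or 3 (1.98, 0.0579) and subcutaneous stromo-vascular array 2 (1.76, 0.099) or 3 (1.78, 0.0974). It was also lost without intraabdominal stromo-vascular array 1 (1.87, 0.0956), 2 (2.14, 0.0514) or 3 (1.90, 0.0919). Over the mean of probe sets Lama4 gave -0.46 (0.436) and Itgb1bp1 -0.40 (0.277), and with the actin ratio as a covariate Cdh3 gave 1.03 (0.105) and Itgb1bp1 -0.66 (0.194). That covariate added calls of Itgb5 (-0.93, 0.0166) and Itgb7 (-2.44, 0.00543).

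**Figure D4:**
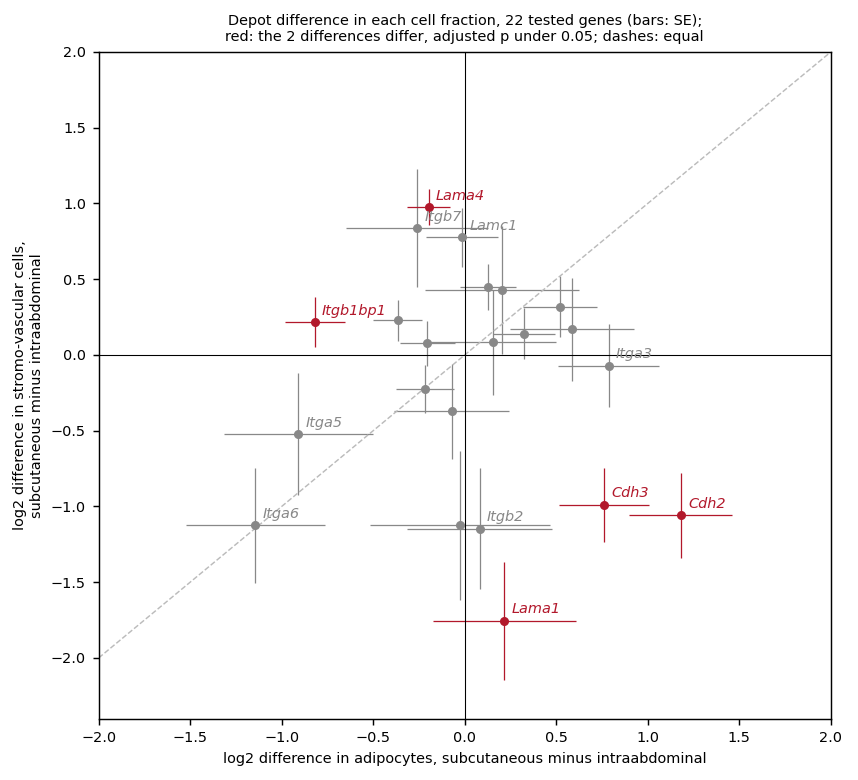
Log2 depot difference (subcutaneous minus intraabdominal) in adipocytes (x axis) and in stromo-vascular cells (y axis) for the 22 tested genes, with SE bars and a dashed line of equal differences. The 5 red genes have a called interaction, with Cdh2 and Cdh3 to the lower right of the line and Lama4 and Itgb1bp1 to its upper left.

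The 14 members not tested were the integrin subunits Itga4, Itga8, Itgb3 and Itgb4, the laminin chains Lama3 and Lamb3, and the cadherins Cdh4, Cdh6, Cdh8, Cdh9, Cdh10, Cdh11, Cdh15 and Cdh16. Their medians over the 12 arrays ran from 15.1 for Cdh8 to 195 for Cdh16. Lama3 and Lamb3, with Itga6 and Itgb4 parts of the anchoring complex beneath skin epithelium, had medians of 164 and 95.6. Itgb4 had a median of 113 and read 726 on subcutaneous adipocyte array 1. That array held the highest value of 6 of the 14 genes and array 2 of the same group that of 3, and these arrays held the highest value of 29.4% and 18.5% of all 3727 probe sets left out as dim. Cdh11, a cadherin of mesenchymal cells, had group means of 122 ± 81.3 and 83.2 ± 40.0 in subcutaneous and intraabdominal adipocytes and 147 ± 12.9 and 254 ± 22.3 in the stromo-vascular cells.

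Partners of these receptors were read from lists of ligands, integrin signalling and focal adhesion genes, catenins and tetraspanins. Of 17 tested ligands and basement membrane partners 3 were higher and 11 lower in adipocytes in each depot. In subcutaneous fat the matrix proteins Fbln2 (-5.81, adjusted p = 1.40e-11) and Thbs2 (-7.12, 1.59e-10) and the laminin-binding nidogen Nid2 (-3.31, 4.52e-10) were lower. The focal adhesion is the plaque that ties integrins to actin. Of 16 tested genes of integrin signalling and this plaque, subcutaneous adipocytes had 5 higher and 7 lower. Intraabdominal ones had 3 higher and 10 lower. The actin crosslinker Actn1 was lower in both (-2.60, 1.85e-08, and -3.61, 4.98e-10). Cav1, the coat protein of caveolae, was higher in both (3.09, 3.00e-10, and 2.55, 2.04e-09).

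Of 11 tested catenins and junction partners subcutaneous adipocytes had 4 higher and 4 lower, and intraabdominal ones 3 higher and 5 lower. The shares over all tested probe sets were 23.5% higher and 29.4% lower in subcutaneous and 22.4% and 29.0% in intraabdominal adipocytes. The catenin Ctnnb1 was lower in both (-1.47, adjusted p = 2.46e-08, and -1.10, 5.29e-07), whereas the desmosomal plakophilin Pkp2 was higher (2.39, 1.76e-07, and 3.49, 2.84e-09). Of 12 tested tetraspanins and other partners in the membrane 3 were higher and 7 lower in each depot, with Tspan4 lower in both (-1.51, 3.39e-08, and -1.48, 4.07e-08).

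Between the depots, 5 of the 16 genes of integrin signalling and focal adhesion were lower in subcutaneous stromo-vascular cells and none higher. Over all tested probe sets 6.45% were lower and 6.49% higher there. Among the lower of these genes were Cav1 (-1.20, adjusted p = 5.46e-05), the kinase-like adaptor Ilk (-0.86, 0.000219) and Actn1 (-1.23, 0.000273). Jup, the catenin shared by desmosomes and adherens junctions, was lower there (-1.50, 5.96e-05), as was the tetraspanin Cd151, a partner of laminin-binding integrins (-0.99, 0.000192). Of the 17 ligands and basement membrane partners 3 were higher and 4 lower, with the laminin receptor Dag1 lower (-0.87, 0.000441) and the matrix protein Fbln1 higher (0.96, 0.000879). Among adipocytes 4 of the 16 genes of integrin signalling and focal adhesion were lower in the subcutaneous depot and 1 higher. The shares over all tested probe sets were 4.16% and 3.97%. The adaptors Vcl (-0.86, 0.00294) and Fermt2 (-0.65, 0.0125) were among the lower.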

How the data were processed

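The values were the authors' deposited signal intensity per probe set on a linear scale, made with MAS5 per the submitters' processing notes (version not given in the sources used here). Detection calls were not used. The arrays' 2% trimmed means differed by a factor of 1.00005, so no scaling was added. From 12488 probe sets 66 controls were left out, and of the 12422 kept 10833 had 1 gene symbol in the platform annotation, 396 several and 1193 none. Here log2 was taken after adding 40.2, the 10th percentile of all values, as pseudocount. The dimmest 30% by mean log2 were not tested. limma 3.58.1 in R 4.3.3 fitted 4 group means on all 12 arrays with an intensity trend (two-sided tests, Benjamini-Hochberg adjustment over 8695 probe sets). The script was tested on simulated data. The number of arrays, 3 per group, limits the precision.

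The members and the partner and marker lists were chosen with earlier results of these data known. Readings per array are given for up to 6 called members per direction and contrast with the largest log2 difference, up to 4 for the interaction and, used only to choose it, the member with the highest mean log2 signal of each family. Some further members, such as Lama5 beside its overlap, were described after their values were seen. Of each partner list up to 3 genes with the smallest p were named, and Cdh5, Itgav and Wt1 were named beside a result. Alternatives were other pseudocounts, filters, scalings, weights, probe set rules, a covariate, a block and the omission of each array.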

Additional observations from a re-analysis of the deposited data

Results flagged for a closer look

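For 5 genes the depot difference (subcutaneous minus intraabdominal, log2) differed between adipocytes and stromo-vascular cells by limma's interaction term. The difference of the differences was 2.24 for Cdh2 (adjusted p = 0.0024), 1.75 for Cdh3 (0.00505), 1.97 for Lama1 (0.0401), -1.17 for Lama4 (0.000422) and -1.04 for Itgb1bp1 (0.0114). Cdh2 was called in both fractions with opposite signs. The other tested probe sets of Cdh3 and Itgb1bp1 had no called interaction. Smooth muscle markers had a called interaction in 6 of 10 cases and mesothelial markers in 4 of 6, all positive as in Cdh2, Cdh3 and Lama1. Macrophage markers had 6 of 13 positive and 1 negative, and preadipocyte and fibroblast markers 3 of 9 positive and 2 negative. Of 11 endothelial markers 3 were negative and none positive. Over all tested probe sets 3.90% were positive and 4.53% negative. The part of these cells in the results was not tested.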

How the results depend on the processing

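Of 41 called differences of single members, 13 kept direction and call in every alternative, 27 lost the call in at least 1 and 1 changed sign. The count of members called between the adipocytes, 2, became 1 with the lowest 50% left out, with quantile normalization, with the actin ratio as a covariate and over the mean of probe sets, and 4 after centring arrays on their medians. That between the stromo-vascular cells, 5, became 3 with the lowest 50% left out and over the mean of probe sets, 10 with array quality weights and 9 with the groups of the contrast alone. The count between the fractions in subcutaneous fat, 15, became 5 with the actin ratio as a covariate. The interaction count, 5, became 3 with the lowest 50% left out and over the mean of probe sets. The cause of these changes was not tested, beyond the 15 members left to test in the 50% filter. With the actin covariate Cdh3 reversed, to -0.061 between the adipocytes (adjusted p = 0.962) and to -1.05 between the fractions in subcutaneous fat (0.309). Leaving out 1 array at a time gave counts of 1 to 4 between adipocytes, 3 to 6 between stromo-vascular cells, 13 to 16 and 12 to 14 between the fractions in subcutaneous and intraabdominal fat, 4 to 5 for the interaction and 17 to 18 for the F-test. With the replicate number as a block the counts were 2, 5, 15, 14, 5 and 18, with the same members called. The numbers gave no pairing, since deviations of same-numbered arrays correlated at -0.09 to 0.11 and those of other numbers at -0.17 to 0.12. Centring on the median turned the split of all called probe sets between adipocytes from 345 higher of 707 to 172 of 958. It moved the median of all tested probe sets from -0.11 to 0.05 between the fractions in intraabdominal fat and from 0.03 to -0.13 for the interaction. Signal over background limits the 14 dim members, which were not tested.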
